A study of Mus musculus with 6 samples.

Results

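The aquaporins are a family of membrane channels that let water cross cell membranes along osmotic gradients. The gene group described here holds 7 of them, Aqp1, Aqp3, Aqp4, Aqp5, Aqp8, Aqp9 and Aqp11, out of 12 aquaporin genes and 55487 gene rows in the tables. They were taken from the tables by gene symbol. The 7 names were selected on the measured values of these same libraries, with the agonist-to-vehicle comparison already known, so their values are given as a description. No threshold on a value defines the group, and the other 5 family members (Mip, Aqp2, Aqp6, Aqp7 and Aqp12) are given beside it.

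The libraries came from mammary tumours of MMTV-PyMT mice, in which the mouse mammary tumour virus promoter drives the polyoma virus middle T oncogene in the mammary epithelium, and every tumour of both groups carries that transgene. One group of 3 libraries came from mice that ate an LXR agonist, named DMHCA in the titles. They took it in Medigel cups without a break from 6 weeks of age. The other group of 3 came from vehicle mice, with the same starting age of 6 weeks. The question was how activation of the liver X receptors, sterol-sensing nuclear receptors, bears on tumour progression. Strain background, age at collection and tumour size are not given in the labels. Whether the libraries of a group came from separate mice is not stated: their titles repeat 1 code, and their tables have different ones. The p-values below therefore measure spread that may be partly technical. Where tumours of a group are named below, its libraries are meant. The agonist libraries held 36577451 to 41434703 expected counts (RSEM's estimated reads per gene) and the vehicle libraries 39977825 to 42595799.

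Aquaporins fall into orthodox members, most of them water-selective (Mip, Aqp1, Aqp2, Aqp4, Aqp5, Aqp6 and, by most accounts, Aqp8), aquaglyceroporins that also pass glycerol and other small solutes (Aqp3, Aqp7 and Aqp9), and the distant intracellular members Aqp11 and Aqp12. In glands, Aqp5 sits in the apical membrane of secretory cells in salivary and lacrimal tissue and in mammary ducts, while Aqp1 lines capillaries and red cell membranes. The pore is built around a pair of Asn-Pro-Ala signatures, 1 in each repeat of the protein.

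The codons of that signature are shown because they tell the classical channels in the group from Aqp11. In the GENCODE M21 coding sequences, whose lengths run from 783 bases for Aqp8 to 969 for Aqp4, an in-frame search for codons of asparagine, proline and alanine in a row found 2 matches in each of Aqp1, Aqp3, Aqp4, Aqp5, Aqp8 and Aqp9. Aqp11 had 1 such match, at codon 216, and at codon 99 it carried Asn-Pro-Cys codons. The stretches below are the signature nearer the start of the protein for 6 of the 7 members (Aqp4 is not shown), 27 bases on the coding strand, with the signature codons in capitals.
Aqp1: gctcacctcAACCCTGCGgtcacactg
Aqp3: gcccacttgAACCCCGCTgtgaccttc
Aqp5: ggccacatcAATCCGGCCattactctg
Aqp8: ggacacttcAACCCTGCTgtgtcgctg
Aqp9: ggccacatcAACCCAGCGgtgtctttt
Aqp11: acagctagcAACCCGTGCggcgtgatg
On GRCm38 they lie in coding exons at chr6:55336707-55336733 (Aqp1, plus strand), chr4:41094810-41094836 (Aqp3, minus strand), chr15:99591467-99591493 (Aqp5, plus strand), chr7:123464193-123464219 (Aqp8, plus strand), chr9:71132732-71132758 (Aqp9, minus strand) and chr7:97737676-97737702 (Aqp11, minus strand).

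A single gene, Aqp5, made up nearly all aquaporin transcripts in these tumours. It held 97.5%, 98.2% and 97.8% of the summed aquaporin TPM (transcripts per 1000000, a level corrected for transcript length) in agonist libraries 1, 2 and 3, and 99.4%, 96.6% and 99.2% in vehicle libraries 1, 2 and 3. The other 11 family genes together came to 12.6 to 17.0 TPM with agonist and 8.6 to 15.7 TPM with vehicle. By TPM, Aqp5 ranked between 186 and 216 among all gene rows in the agonist libraries and between 56 and 277 in the vehicle libraries.

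Over all 6 libraries the order of the members by mean TPM was Aqp5 (961 ± 675, SD, n = 6), Aqp1 (9.12 ± 3.09), Aqp11 (1.80 ± 0.91), Aqp9 (0.82 ± 0.67), Aqp3 (0.21 ± 0.21), Aqp4 (0.087 ± 0.051) and Aqp8. Aqp5 stood apart from Aqp1 in every library, and Aqp1 from Aqp11, since the lowest library of each gene exceeded the highest of the next. The ranges of Aqp11 and Aqp9 overlapped, as did those of Aqp9 and Aqp3 and those of Aqp3 and Aqp4, so that part of the order does not hold beyond the spread between libraries. Aqp8 was read by 1 count in agonist replicate 3 and by 0 counts in the other 5 libraries, where a count of 0 allows up to 3 counts, or 0.0704 to 0.082 CPM (counts per 1000000 counts of the library), for counting error only.

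**Figure D1:**
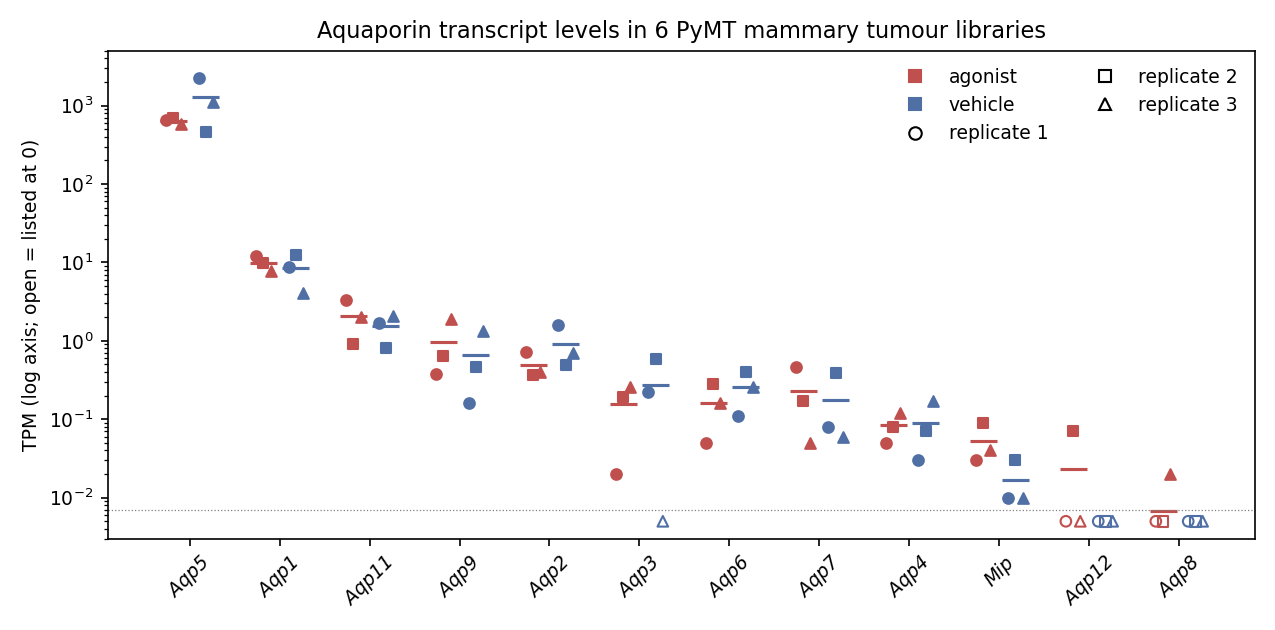
TPM of the 12 aquaporin genes in each library (log axis), agonist libraries in red to the left of vehicle libraries in blue, with bars at group means and open symbols for values listed at 0. Aqp5 lies at 454 to 2258 TPM, and every other aquaporin lies at or below 12.5 TPM.

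Aqp5 had 655, 698 and 578 TPM in agonist tumours 1, 2 and 3, against 2258, 454 and 1122 TPM in vehicle tumours 1, 2 and 3. The agonist libraries lay close together, and the vehicle libraries lay both above and below them, so the groups overlapped. In expected counts this was 20132, 23751 and 20308 with agonist and 78659, 17975 and 37016 with vehicle, so counting error was small beside the differences between libraries. The means were 537 ± 48.0 CPM with agonist and 1064 ± 669 CPM with vehicle (SD, n = 3 each; CPM here are scaled to normalized totals).

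The log2 fold change of Aqp5 was -0.99 ± 0.44 (SE; 95% interval -2.03 to 0.060), and its adjusted p in edgeR's quasi-likelihood test over all genes was 0.99. The value depended on vehicle replicate 1: without that library it was -0.38, and without vehicle replicate 2 it was -1.34, with an edgeR adjusted p of 0.27. On the log2 scale the SD of Aqp5 was 0.13 over the agonist libraries and 0.95 over the vehicle libraries. The median gene, among 13096 genes with a mean log2 CPM of at least 1, had 0.20 and 0.27. Of those genes, 1104 (8.43%) varied at least as much as Aqp5 among vehicle tumours, so the wide vehicle spread was shared by many genes.

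In the fit over 17396 genes, 0 passed an adjusted p of 0.05, which is 0% of the genes tested, and 538 had an unadjusted p under 0.05. That second count depended on single libraries: it was 2442 without vehicle replicate 2 (smallest adjusted p 0.26 in edgeR's test) and 315 without agonist replicate 3. Of the 7 members, 5 had enough reads to be tested (Aqp1, Aqp3, Aqp5, Aqp9 and Aqp11), and Aqp4 and Aqp8 did not. Members called were 0, with 0 at an unadjusted p under 0.05 by edgeR, 1 by DESeq2 (Aqp5) and 0 by limma-trend. Without vehicle replicate 2, edgeR had 1 (Aqp5). No member had groups that did not overlap, while over all genes 3.02% lay higher in every agonist library than in any vehicle library and 4.22% lay lower. Of the 5 tested members 3 had positive and 2 negative log2 fold changes.

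**Figure D2:**
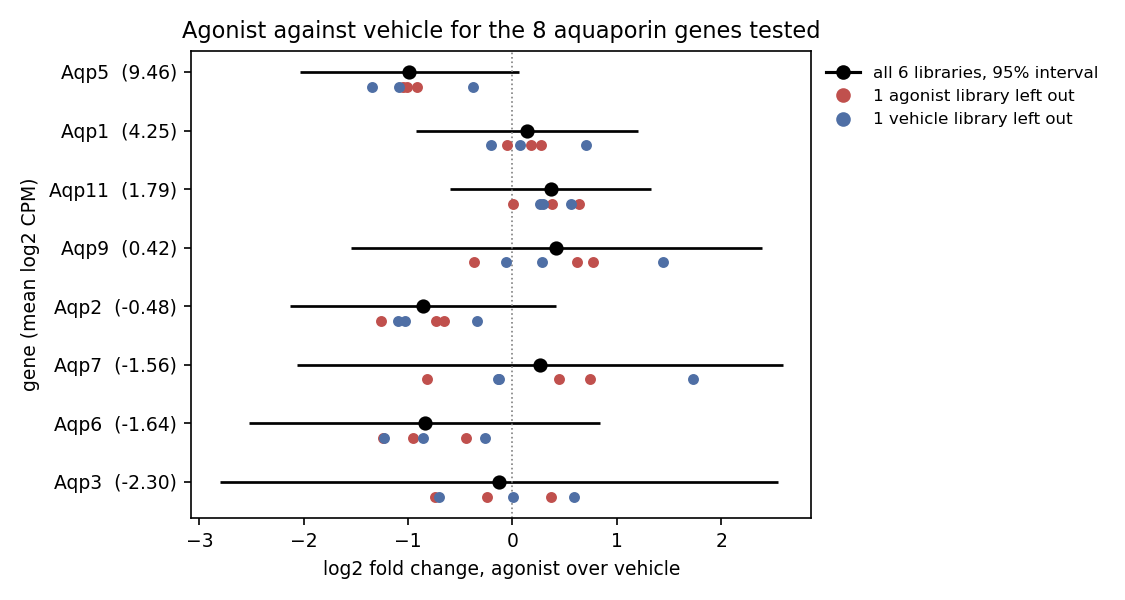
Log2 fold change of agonist over vehicle for the 8 aquaporin genes tested, ordered by mean log2 CPM; black points and lines give the estimate and its 95% interval, and coloured points give it with 1 library left out. Every interval includes 0, and for Aqp5 the estimates run from -1.34 to -0.38.

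Aqp5 (ENSMUSG00000044217) lies on chromosome 15 from 99590782 to 99594829 on the plus strand, with Aqp2 6234 bases upstream and Aqp6 6570 bases downstream on the same strand and no overlapping gene in GENCODE M21. Aqp2, the vasopressin-regulated channel of the kidney collecting duct, had 29, 15 and 18 counts with agonist and 67, 23 and 29 counts with vehicle. Like Aqp5 it was highest in vehicle tumour 1, and its log2 fold change was -0.86 ± 0.55 (SE; -0.34 without vehicle replicate 1). Per 1000 Aqp5 counts there were 0.632 to 1.44 Aqp2 counts with agonist and 0.783 to 1.28 with vehicle. Aqp6, an intracellular channel of kidney intercalated cells, had 3, 14 and 11 counts with agonist and 7, 26 and 16 with vehicle, and it did not follow Aqp5, with its highest value in the vehicle tumour where Aqp5 was lowest. Its log2 fold change was -0.84 ± 0.73 (SE), and -0.27 without vehicle replicate 2.

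The promoters of this gene cluster were searched for short motifs, on both strands of the 250 bases before each RefSeq start (GRCm38.p6), where 11 aquaporins and 6 of the 7 members had an entry. The half-site of nuclear receptors, AGGTCA, was found upstream of Aqp11 alone among the members and also of Aqp7, and in 14.0% of all 32851 promoters. The LXR-type direct repeat, 2 such half-sites separated by 4 bases, was found in 0 aquaporin promoters and in 5 of all promoters (0.0152%). Only these exact letters were searched, and so few promoters hold them that 0 of 11 aquaporins cannot show a lack of such repeats. Looser or more distant repeats were not searched. The E-box CACGTG, which reads the same on both strands, was found in each gene of the Aqp2, Aqp5 and Aqp6 cluster and in Aqp8, against 6.02% of all promoters. GGGCGG was found in Aqp1, Aqp3 and Aqp5 among the members (32.7% of all promoters), TATAAA in Aqp3 (12.4%) and TGGAAA in Aqp9 (18.6%). A match is a description of letters and not of a bound site. The E-box stretches of the cluster are set beside each other because the 3 genes are neighbours of very unequal level, and the Aqp11 stretch because it holds the half-site, here read on the opposite strand. Each is 30 bases on the gene's strand with the motif in capitals.
Aqp2: cctcctccacccCACGTGcccaggtctacg
Aqp5: tgccgcgtgggtCACGTGgcccgggcgggt
Aqp6: agctggaacagaCACGTGagcactctgaac
Aqp11: tggctgcaaagaTGACCTctggggctccgt
They lie at chr15:99578986-99579015 (Aqp2, plus strand), chr15:99590929-99590958 (Aqp5, plus strand), chr15:99601159-99601188 (Aqp6, plus strand) and chr7:97738460-97738489 (Aqp11, minus strand). The RefSeq start of Aqp5 is 246 bases downstream of the start of the GENCODE gene, and the Aqp5 stretch falls within the first exon of 2 of its 6 GENCODE transcripts.

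Aqp5 did not follow the summed markers of the gland cells that are best known for it. The salivary and lacrimal list (15 of 16 genes found in the tables, among them Scgb2b27, Mucl2 and Prol1) summed to 662, 9718 and 927 TPM in agonist tumours 1, 2 and 3, against 227, 839 and 2347 TPM in vehicle tumours 1, 2 and 3. Agonist tumour 2 stood far above the rest for these secretory genes, while its Aqp5 level was that of the other agonist tumours. The tumour with the most Aqp5, vehicle tumour 1, had the lowest sum. The luminal epithelial list (12 of 12 genes, led by Krt18, Krt8 and Epcam) summed to 3244 to 3592 TPM with agonist and 3682 to 3714 TPM with vehicle. That sum was lower in each agonist tumour than in any vehicle tumour. Of its 12 genes only 1, Krt18, lay lower in this way by CPM, against 4.22% of all genes, and 0 were called. The genes of the list did not move together. Krt19 had 193, 520 and 143 TPM in the vehicle tumours, highest where Aqp5 was lowest. Cldn3, with 651, 354 and 575 TPM, was highest where Aqp5 was highest. Milk secretion genes summed to 13819 to 29359 TPM with agonist and 18289 to 24747 TPM with vehicle. Most of that sum was 1 gene, Csn3, at 12232 to 25908 TPM with agonist and 16364 to 23025 TPM with vehicle. By CPM, 1 of the 10 genes, Lalba, lay lower in every agonist library, and 0 were called. In bulk tumours, fewer cells of a type and less RNA per cell cannot be told apart.

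**Figure D3:**
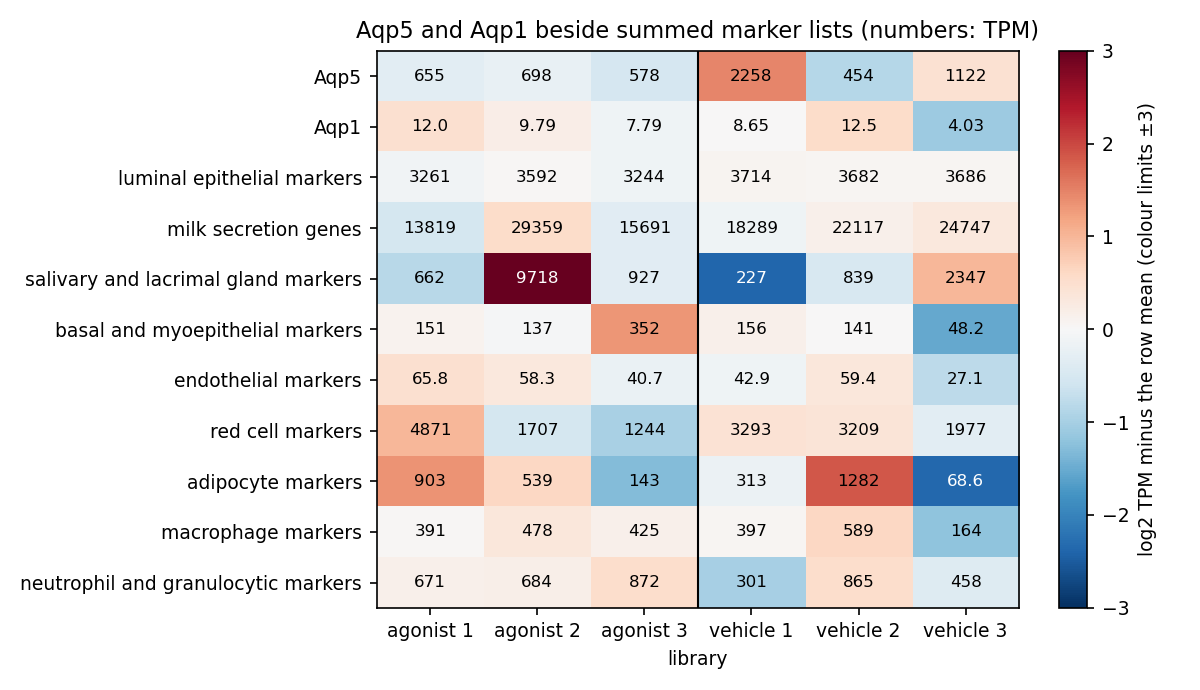
TPM of Aqp5 and Aqp1 and summed TPM of 9 marker lists in each library, agonist to the left of vehicle, coloured by log2 distance from the row's mean (colour limits at 3 units either way). Aqp5 peaks in vehicle 1, where the salivary and lacrimal sum is lowest at 227 TPM. Aqp1 is lowest in vehicle 3, where the endothelial, adipocyte, macrophage, and basal and myoepithelial sums are lowest too.

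By the profile of log2 CPM over the 6 libraries, the genes nearest to Aqp5 were Oasl1, Gpr162, Shfl and Sh3bp1, with root mean square differences of 0.11, 0.13, 0.14 and 0.16 from it (Aqp5 itself deviates from its mean by 0.68). Oasl1 and Shfl encode interferon-induced antiviral proteins, Gpr162 an orphan receptor and Sh3bp1 a GTPase-activating protein. Oasl1 had 3.21, 3.22 and 2.29 TPM with agonist and 9.53, 2.12 and 4.81 TPM with vehicle. Like Aqp5 it was highest in vehicle tumour 1, intermediate in vehicle tumour 3 and lowest in vehicle tumour 2. The 4 were picked out of 13095 genes for this likeness over 6 libraries, so it is a description only.

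**Figure D4:**
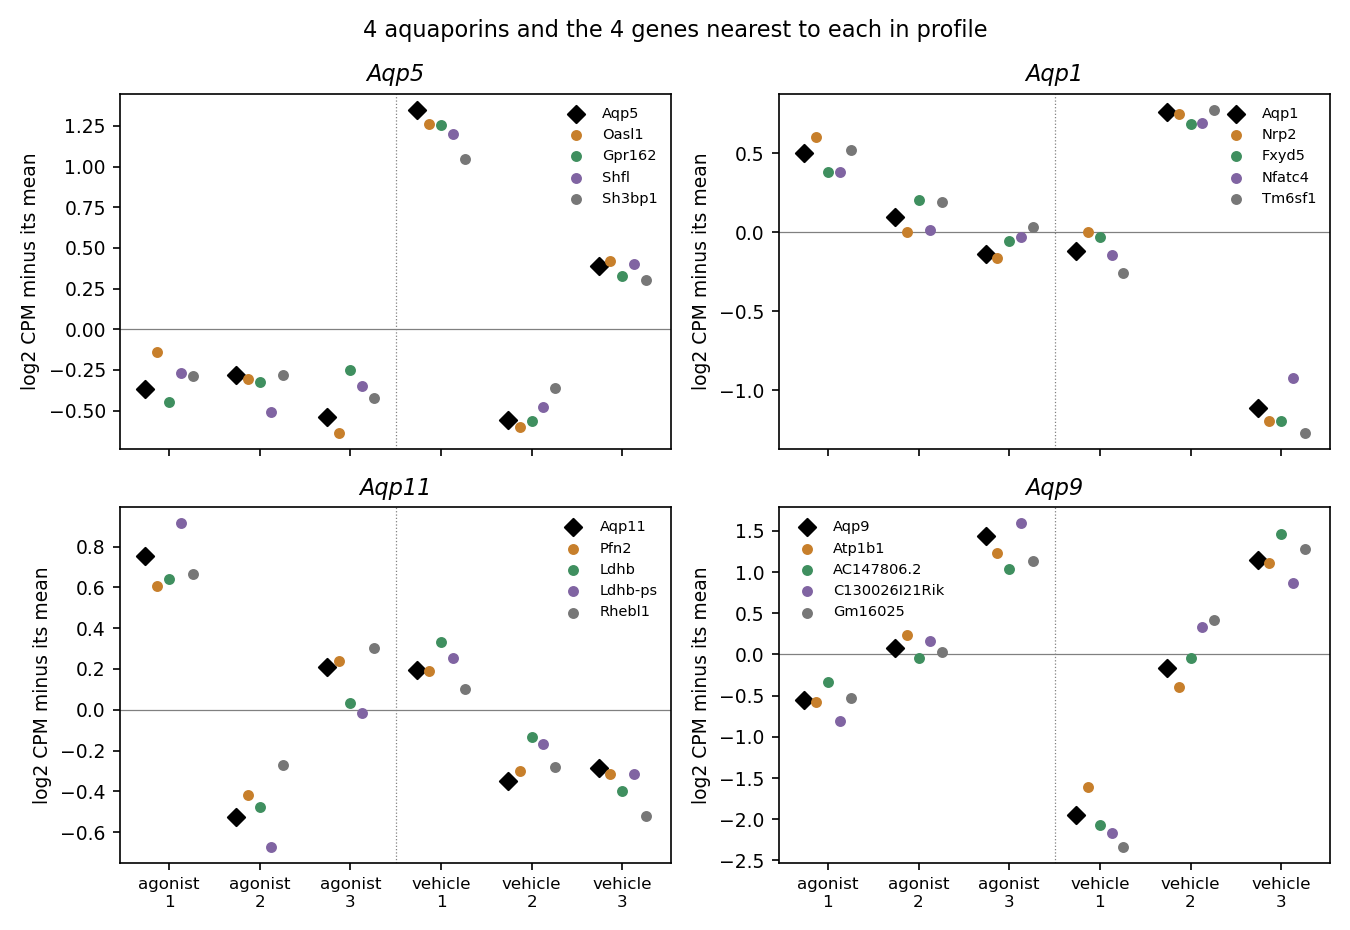
Log2 CPM minus its mean over the 6 libraries for Aqp5, Aqp1, Aqp11 and Aqp9 (black diamonds) and the 4 genes nearest to each (coloured points), agonist libraries left of vehicle libraries. The Aqp5 panel is high at 1.35 in vehicle 1 and low at -0.56 in vehicle 2, and the Aqp1 panel is low at -1.11 in vehicle 3.

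Aqp1 (ENSMUSG00000004655, chromosome 6, 55336432 to 55348555, plus strand), the water channel of capillary endothelium and red cells, was the next most abundant. It had 12.0, 9.79 and 7.79 TPM in agonist tumours and 8.65, 12.5 and 4.03 TPM in vehicle tumours. Vehicle tumour 2 was highest and vehicle tumour 3 lowest, with the agonist tumours between them. The log2 fold change was 0.14 ± 0.45 (SE; 95% interval -0.92 to 1.204; edgeR adjusted p = 0.99), and without vehicle replicate 3 it turned to -0.20.

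Endothelial markers (12 of 12 genes) summed to 65.8, 58.3 and 40.7 TPM in agonist tumours and 42.9, 59.4 and 27.1 TPM in vehicle tumours. Aqp1 and that sum had the same order of libraries except that agonist tumour 1 and vehicle tumour 2 changed places. Red cell markers, led by Hba-a1, summed to 4871, 1707 and 1244 TPM with agonist and 3293, 3209 and 1977 TPM with vehicle, and their lowest library was agonist tumour 3, where Aqp1 was not lowest. Adipocyte markers (143 to 903 TPM with agonist, 68.6 to 1282 with vehicle) and macrophage markers (391 to 478 TPM with agonist, 164 to 589 with vehicle) were also lowest in vehicle tumour 3. That library was lowest as well for the basal and myoepithelial (48.2 TPM), squamous and skin (23.4), skeletal muscle (619) and pancreatic acinar (4.91) sums, so the low value was not particular to vessels. The part of these cell types in the Aqp1 values was not tested. The genes nearest to Aqp1 in profile were Nrp2, a neuropilin coreceptor of VEGF and semaphorins, Fxyd5, a regulator of the sodium pump, Nfatc4 and Tm6sf1, at root mean square differences of 0.082 to 0.12 on the log2 scale.

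Aqp11 (ENSMUSG00000042797, chromosome 7, 97724006 to 97738289, minus strand) encodes a channel of intracellular membranes whose loss in mice causes cystic kidneys. It had 213, 96 and 165 counts in agonist tumours and 171, 100 and 112 counts in vehicle tumours. Agonist tumour 1 was highest and agonist tumour 2 lowest, so the agonist group spanned the vehicle group. The log2 fold change was 0.37 ± 0.41 (SE; 95% interval -0.59 to 1.33; edgeR adjusted p = 0.99), and 0.0086 without agonist replicate 1.

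The TPM of Aqp11 gave another order than its counts. They were 3.31, 0.91 and 2.02 TPM with agonist and 1.70, 0.82 and 2.05 TPM with vehicle, so vehicle tumour 3 was the highest vehicle library by TPM and vehicle tumour 1 by counts. Aqp11 has 5 annotated transcripts, and the effective length that the authors' RSEM run assigned to the gene was 1829, 2856 and 2045 bases with agonist and 2616, 2926 and 1461 bases with vehicle. Its level per length therefore rests on how RSEM shared a small number of reads among transcripts. Its nearest genes in profile were Pfn2, an actin-binding profilin, the lactate dehydrogenase subunit gene Ldhb with its pseudogene Ldhb-ps, and Rhebl1, at 0.079 to 0.16. Reads of Ldhb and Ldhb-ps may be exchanged between the copies.

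Aqp9 (ENSMUSG00000032204, chromosome 9, 71110659 to 71168682, minus strand) encodes an aquaglyceroporin of hepatocytes and leukocytes. It had 0.38, 0.65 and 1.91 TPM (32, 56 and 150 counts) in agonist tumours and 0.16, 0.47 and 1.33 TPM (13, 43 and 117 counts) in vehicle tumours. Each group ran over a wide range, with agonist tumour 3 and vehicle tumour 3 highest. The log2 fold change was 0.42 ± 0.84 (SE; edgeR adjusted p = 0.99), and it turned to -0.37 without agonist replicate 3 and ran up to 1.44 without vehicle replicate 3.

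Neutrophil and granulocytic markers, led by Ltf, which mammary epithelium also makes, summed to 671, 684 and 872 TPM in agonist tumours and 301, 865 and 458 TPM in vehicle tumours, with Ly6g at 0 in all 6 libraries. Without Ltf the other 10 genes summed to 164, 65.8 and 121 TPM with agonist and 76.9, 74.7 and 24.2 TPM with vehicle. Most of that sum was 1 gene, S100a8, at 151, 55.8 and 113 TPM with agonist and 69.9, 65.7 and 19.1 TPM with vehicle. Vehicle tumour 3, the highest vehicle library for Aqp9, was lowest for that sum. Hepatocyte markers summed to 12.2, 3.41 and 1.04 TPM with agonist and 22.7, 0.94 and 4.75 TPM with vehicle, highest where Aqp9 was lowest. In that library, vehicle tumour 1, most of the sum was 1 gene, Ahsg, at 18.8 TPM. The gene nearest to Aqp9 in profile was Atp1b1, the beta subunit of the sodium pump, at a root mean square difference of 0.20 where Aqp9 itself deviates from its mean by 1.12. Atp1b1 had 19.0, 36.4 and 67.8 TPM with agonist and 10.7, 18.8 and 64.1 TPM with vehicle. The next nearest were 3 loci without an assigned function, AC147806.2, C130026I21Rik and Gm16025 (0.24 to 0.31). Aqp9 overlaps 2 genes on the opposite strand, Gm47268 and Gm32511, with 0 exonic bases in common with either.

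Aqp3 (ENSMUSG00000028435, chromosome 4, 41092722 to 41098183, minus strand) encodes an aquaglyceroporin of basolateral membranes in skin, airway and kidney epithelium. It was scarce in both groups, with 1, 10 and 15 counts in agonist tumours and 12, 16 and 0 counts in vehicle tumours. In 4 of 6 libraries it reached 10 counts, and both groups held a library at or near 0. The log2 fold change was -0.13 ± 1.15 (SE; edgeR adjusted p = 0.995), with values from -0.75 without agonist replicate 3 to 0.59 without vehicle replicate 2. Squamous and skin markers were low throughout, at 30.3 to 39.6 TPM in sum with agonist and 23.4 to 39.0 TPM with vehicle. Basal and myoepithelial markers summed to 151, 137 and 352 TPM with agonist and 156, 141 and 48.2 TPM with vehicle. Vehicle tumour 3, with Aqp3 listed at 0, was lowest for both sums. Agonist tumour 1, with 1 Aqp3 count, had the lowest squamous sum of its group, at 30.3 TPM. Its basal sum of 151 TPM lay above the 137 TPM of agonist tumour 2, which had 10 Aqp3 counts.

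Aqp4 (ENSMUSG00000024411, chromosome 18, 15389496 to 15410982, minus strand), the channel of astrocyte endfeet and of fast skeletal muscle fibres, had 9, 13 and 8 counts in agonist tumours and 4, 9 and 11 counts in vehicle tumours. It did not pass the filter on low counts, and in a fit without that filter the log2 fold change was 0.33 ± 0.73 (SE; edgeR adjusted p = 0.97). Its TPM ran from 0.05 to 0.12 with agonist and from 0.03 to 0.17 with vehicle. Skeletal muscle markers (14 of 14 genes, led by Tnnc2) summed to 1011, 677 and 745 TPM with agonist and 773, 697 and 619 TPM with vehicle, in other orders than Aqp4. The gene overlaps AC133525.2 on the opposite strand, with 0 exonic bases in common.

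Aqp8 (ENSMUSG00000030762, chromosome 7, 123462291 to 123468004, plus strand) is known from pancreas, colon, liver and salivary gland and also passes hydrogen peroxide and ammonia. With 1 count in all, no fold change can be read. Of 8 pancreatic acinar markers, Cela2a, Cpb1, Prss2 and Ctrb1 were at 0 in all 6 libraries. The list summed to 9.85 to 14.4 TPM with agonist and 4.91 to 23.2 TPM with vehicle, nearly all of it from Cel (4.85 to 10.8 TPM with agonist and 2.13 to 17.5 with vehicle) and Cela1 (3.53 to 6.23 TPM with agonist and 2.78 to 10.1 with vehicle).

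Ion transport sets the gradient that water follows through aquaporins, and several genes of epithelial fluid secretion were abundant. Of 18 listed genes 17 were tested, 0 rose and 0 fell at an adjusted p of 0.05, with 0 at an unadjusted p under 0.05 by edgeR, 0 by DESeq2 and 0 by limma-trend. There were 4 positive and 13 negative log2 fold changes with a median of -0.22, where all genes tested had a median of -0.0049. The median of the list was -0.092 by limma-trend on log2(TPM + 1). With 1 library left out it ran from -0.33 (vehicle replicate 2) to -0.12 (vehicle replicate 1). Kcnn4, the calcium-activated potassium channel that drives secretion in gland cells, had 365, 371 and 237 TPM with agonist and 615, 252 and 508 TPM with vehicle (log2 fold change -0.48 ± 0.27, SE). Ano1, the calcium-activated chloride channel of secretory epithelium, had 77.5, 147 and 72.7 TPM with agonist and 149, 110 and 171 TPM with vehicle (-0.49 ± 0.25). Both had overlapping groups, and Kcnn4 had its peak in the same vehicle tumour as Aqp5. Scnn1a, a subunit of the epithelial sodium channel, had a log2 fold change of -0.79 ± 0.42 (SE; 0.74 to 1.02 TPM with agonist and 0.68 to 2.19 TPM with vehicle).

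The genes that respond to osmotic stress, many of them driven by the transcription factor NFAT5, were called in 0 of 10 tested cases, with 0 at an unadjusted p under 0.05 by edgeR, 0 by DESeq2 and 0 by limma-trend. Of these, 6 were positive and 4 negative (median 0.066), against 9 and 1 by limma-trend on log2(TPM + 1) and 8 and 2 with upper-quartile factors. Akr1b3, the aldose reductase that makes the osmolyte sorbitol, had 47.9, 71.2 and 53.5 TPM with agonist and 40.6, 50.3 and 33.0 TPM with vehicle (log2 fold change 0.41 ± 0.24, SE; 0.25 without vehicle replicate 3 and 0.70 without vehicle replicate 2). Sgk1, a kinase of sodium transport, was at 0.26 ± 0.20, Slc38a2, an amino acid transporter induced by hypertonicity, at 0.20 ± 0.18, and the volume-sensing kinases Wnk1 at 0.15 ± 0.15 and Stk39 at -0.20 ± 0.21. All 5 had overlapping groups by CPM. By TPM, Wnk1 did not overlap, with 83.3, 83.1 and 75.3 TPM with agonist and 59.3, 54.9 and 73.8 TPM with vehicle. The TPM sum of the list was 417 to 446 with agonist and 327 to 407 with vehicle. By CPM, 3.02% of all genes lay higher in every agonist library than in any vehicle library, and the share by TPM was not computed.

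Glycerol handling, the pathway that aquaglyceroporins feed, had 9 genes tested, 0 called, and 1 at an unadjusted p under 0.05 by edgeR, by DESeq2 and by limma-trend alike. There were 3 positive and 6 negative log2 fold changes (median -0.040), against 4 and 5 by limma-trend and with upper-quartile factors. That gene was Pnpla3, a lipase of lipid droplets, with 0.54, 0.76 and 0.44 TPM in agonist tumours and 1.54, 0.94 and 2.22 TPM in vehicle tumours. It was lower in every agonist library than in any vehicle library (log2 fold change -1.45 ± 0.45, SE; edgeR adjusted p = 0.99). By CPM, 4.22% of all genes lay lower in the same way, and 538 of 17396 genes had an unadjusted p under 0.05 by edgeR. Without agonist replicate 3, or without vehicle replicate 3, 0 of the 9 had an unadjusted p under 0.05 by edgeR. The lipases Pnpla2 (-0.26 ± 0.15), Lipe (-0.47 ± 0.39) and Mgll (-0.028 ± 0.21) and the dehydrogenase Gpd1 (-0.29 ± 0.18) had overlapping groups by CPM. By TPM, Pnpla2 was lower in every agonist library, with 81.9, 89.5 and 89.9 TPM against 98.7, 99.4 and 113 TPM with vehicle. Lipe, Mgll and Gpd1 overlapped by TPM too.

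Genes that anchor or move aquaporins were called in 0 of 11 cases. An unadjusted p under 0.05 was reached by 3 of them by edgeR (Pip among these), 2 by DESeq2 and 0 by limma-trend. Over all 17396 genes tested, the counts were 538 by edgeR, 666 by DESeq2 and 375 by limma-trend. The list had 4 positive and 7 negative log2 fold changes (median -0.16). The median was -0.034 by limma-trend on log2(TPM + 1), and -0.072 without vehicle replicate 3, when 0 of the 11 had an unadjusted p under 0.05 by edgeR. In 3 of the 11 every agonist library lay below every vehicle library by CPM, against 4.22% of all genes. Among them were the ubiquitin ligase Nedd4l (log2 fold change -0.40 ± 0.15, SE) and the protein kinase A subunit Prkaca (-0.20 ± 0.14), the second named after its values were seen. Dag1, the dystroglycan that ties the dystrophin complex to the matrix, was at -0.35 ± 0.20 and Ezr, the cytoskeletal linker ezrin, at -0.096 ± 0.15, both with overlapping groups. By TPM, the groups of Nedd4l and Prkaca overlapped. Pip, a secreted gland protein that binds Aqp5 in mouse tear glands, had 13.8, 3771 and 30.2 TPM with agonist and 11.9, 16.1 and 13.2 TPM with vehicle. Its log2 fold change of 6.35 ± 2.18 (SE; edgeR adjusted p = 0.99) was 0.78 without agonist replicate 2, the tumour whose salivary and lacrimal sum was also highest.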

How the data were processed

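Total RNA of mammary tumours was sequenced as 6 libraries, 1 table per library. Per the submitters' processing notes, tools included STAR 2.7.9a, RSEM 1.3.1, cutadapt 3.5 and FastQC 0.11.9, on build GRCm38; for their settings, annotation and strand, the sources used here give nothing. Per the file headers, the deposited tables hold RSEM expected counts, which share reads among transcripts, and, made by the authors' RSEM run from those reads, TPM and FPKM. Between 10.1% and 10.5% of expected counts were not whole, and all were rounded for testing. Groups come from the treatment labels.

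Agonist was compared with vehicle by edgeR 4.0.16 (R 4.3.3; TMM, filterByExpr with minimum count 10 and total 15, robust quasi-likelihood F test, no covariates) on 17396 genes, with Benjamini-Hochberg adjustment over all of them. SE was obtained as log2 fold change over sqrt(F). The code was tested on simulated data. Positions are from GENCODE M21, which held 55141 of the row identifiers, and promoters from RefSeq.

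The members and lists were chosen with earlier results of these data known. Genes named are the aquaporin family, of each pathway list the 4 with the smallest unadjusted p and the 2 with the highest mean TPM, of each marker list up to 3 of the highest TPM, and, for members whose log2 CPM (prior count 2) ranges over at least 1 unit, the 4 genes with a mean log2 CPM of at least 1 that lie nearest by root mean square difference. Some genes that this rule names are not reported here, though list counts include them. Alternatives were scaling by upper-quartile or by DESeq2 size factors, a stricter filter (CPM of 1 in 3 libraries) or none, leaving out each library, a replicate block, DESeq2 1.42.0, and limma-trend (3.58.1) on log2(TPM + 1). FPKM served only as an alternative for levels. Intervals and floors cover counting error or the spread between these libraries only.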

Additional observations from a re-analysis of the deposited data

How the results depend on the processing

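Aquaporin members called were 0 in every setting run, and so were the calls of the 4 pathway lists. Over all genes, calls were 0 except for DESeq2's Wald test, which made 4, none of them an aquaporin or a pathway gene. With the replicate number as a block calls were also 0 (Aqp5 at -0.79). The labels do not say whether the numbers pair samples. Same-numbered libraries deviated together with correlations of 0.17, 0.038 and 0.063, and differently numbered ones with -0.11 to 0.055. Such small values cannot settle whether the samples were paired. With libraries left out, the direction turned for Aqp1 (log2 fold changes of -0.20 to 0.71), Aqp3 (-0.75 to 0.59), Aqp7 (-0.82 to 1.73), Aqp9 (-0.37 to 1.44), Lipe (-0.75 to 0.053) and Mgll (-0.16 to 0.13). It kept its sign for Aqp5 (-1.34 to -0.38) and Aqp11 (0.0086 to 0.64). Mgll also turned with upper-quartile factors (0.011) and with limma-trend on TPM (0.064). Upper-quartile factors moved the median of all genes to 0.031. The spread among vehicle tumours is the wider one for Aqp5 and Aqp1 and that among agonist tumours for Aqp11, and counts under 20 limit Aqp3, Aqp4 and Aqp8.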

Other observations

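Of the aquaporins outside the group, Aqp7, the glycerol channel of fat cells, had 34, 13 and 4 counts with agonist and 6, 32 and 5 counts with vehicle (log2 fold change 0.26 ± 1.002, SE). Its highest libraries, agonist tumour 1 and vehicle tumour 2, were also the highest for the adipocyte marker sum, at 903 and 1282 TPM. Mip, the lens channel, had 6 counts or fewer in each library, and Aqp12, a channel of the exocrine pancreas, had 2 counts in agonist tumour 2 and 0 elsewhere.

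The genes nearest to Aqp3 in profile were Bahcc1, 9330159F19Rik, Ggt1 and Slc2a10, but at root mean square differences of 0.42 to 0.57 on the log2 scale they lay farther from it than the nearest genes of Aqp1, Aqp5, Aqp9 and Aqp11 did from theirs, and Aqp3 had at most 16 counts in a library. The effective length assigned to Aqp3 was 1502, 1459 and 1468 bases with agonist and 1449, 650 and 807 bases with vehicle. Agonist tumour 3 had 0.26 TPM from 15 counts, and vehicle tumour 2 had 0.59 TPM from 16 counts.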
